A study of Rattus norvegicus with 12 samples.

Results

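Collagens and the stromal matrix proteins that surround them were followed across 12 ventral prostate arrays from castrated rats, rats given estradiol, rats given both and vehicle controls. A gene belonged to the group if a probe set carried it as its only annotated symbol and the symbol was a numbered collagen chain (Col, a number, a, a number) or 1 of 15 listed matrix genes. This gave 39 of the 14506 genes measured: 25 collagen chains and 14 of the 15 listed genes, and Tnc was not analysed here. Where a gene had several probe sets, the one with the highest mean over the 12 arrays was used, which concerned only Col6a4 with 3. The collagens were 10 chains of fibrillar collagens, 5 of basement membrane and network collagens, 1 of the beaded-filament type VI, 5 of FACIT collagens, which sit on the surface of fibrils, and 4 of other types. The listed genes were 5 small leucine-rich proteoglycans, 4 matricellular and adhesive proteins with versican, and 5 genes of elastic fibres and crosslinking.

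All animals were male Wistar rats, treated at 90 days of age, and each group had 3 arrays. Castrated rats had their testes removed through the scrotum, anaesthetised with 150 mg/kg of ketamine plus 10 mg/kg of xylazine. Estradiol rats, whose testes were left in place, received 25 mg/kg of 17β-estradiol in corn oil, and castrated plus estradiol rats had both the operation and the hormone. Control rats received the corn oil vehicle, and the labels do not say whether castrated rats without estradiol received it too. The ventral prostate was taken 3 days later. The arrays are not tied to named animals, so the p-values measure the spread between these arrays, part of which may be technical. Levels are deposited values read as log2, so a difference of 1 is a doubling, and a level on one probe set cannot be set against that on another.

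Around the ducts of the rat ventral prostate lies a stroma of smooth muscle, fibroblasts and vessels, and these cells make most of the matrix. Fibrillar collagens form the load-bearing fibres, FACIT collagens and small leucine-rich proteoglycans coat the fibres and govern their spacing and thickness, and lysyl oxidases crosslink them. After orchiectomy the epithelium of the gland is known to shrink by apoptosis, and the stroma is then remodelled around it.

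The promoters of Postn, Lum and Ogn are shown because Postn and Ogn each passed a test against control, and Lum was lower on every estradiol array than on any other array. RefSeq (GRCr8) held an entry for 28 of the 39 genes, and none for Col14a1 or Dcn. Each line gives the 250 bases before the annotated start, 5′ to 3′ on the gene's own strand, with matches to the searched motifs in capitals. The windows are Postn at chr2:140677811-140678060 (plus strand), Lum at chr7:34245456-34245705 (plus strand) and Ogn at chr17:15258996-15259245 (minus strand).
Postn: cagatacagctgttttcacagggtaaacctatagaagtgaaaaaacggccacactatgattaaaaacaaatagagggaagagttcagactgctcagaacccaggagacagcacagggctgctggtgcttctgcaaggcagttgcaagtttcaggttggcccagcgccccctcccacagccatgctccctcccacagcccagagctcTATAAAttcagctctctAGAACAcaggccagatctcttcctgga
Lum: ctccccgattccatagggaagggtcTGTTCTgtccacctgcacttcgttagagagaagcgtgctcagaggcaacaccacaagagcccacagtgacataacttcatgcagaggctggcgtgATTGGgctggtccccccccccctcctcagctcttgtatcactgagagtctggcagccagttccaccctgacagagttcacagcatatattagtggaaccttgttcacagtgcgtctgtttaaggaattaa
Ogn: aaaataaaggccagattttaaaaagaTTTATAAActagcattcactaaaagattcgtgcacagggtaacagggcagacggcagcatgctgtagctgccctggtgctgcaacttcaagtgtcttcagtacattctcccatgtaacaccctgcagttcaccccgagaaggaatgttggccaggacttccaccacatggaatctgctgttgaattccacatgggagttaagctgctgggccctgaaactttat

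In Postn the capitals mark a TATA box, TATAAA, 39 to 44 bases before the start, and AGAACA, the core hexamer of an androgen response element, 22 to 27 bases before it. In Lum they mark CCAAT on the opposite strand, 126 to 130 bases before the start, and the same androgen core on the opposite strand, 220 to 225 bases before it. In Ogn they mark TATAAA on both strands, 217 to 222 and 219 to 224 bases before the start, so that the pair overlap. Both strands of 27457 promoters were searched in the same window. TATAAA was present in 13.1% of them and in 6 of the 28 matrix promoters, CCAAT in 34.3% and 10, and the GC box GGGCGG in 32.4% and 13. AGAACA was present in 17.1% of all promoters and in 5 of the 28, and the AP-1 element TGANTCA in 6.36% and 0. The full androgen response element (AGAACA, any 3 bases, TGTTCT) was found in 0.00364% of all promoters, and the full oestrogen response element (GGTCA, any 3 bases, TGACC) in 0.0219%. Neither was found in the 28. TATAAA can overlap its own reverse complement, and the full androgen element contains AGAACA. A match is a run of letters in the window and was not tested as a binding site.

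The arrays were of similar overall level, with medians between 5.53 and 5.76, but estradiol arrays 1 and 2 stood apart from the other 10. The SD over all probe sets was 1.93 and 2.01 on those arrays and 2.24 to 2.30 on the others. The dimmest 10% of genes averaged 3.41 and 3.34 on them, against 2.69 to 2.84 on the others, and the brightest 10% averaged 9.27 and 9.82, against 10.0 to 10.1. The main estradiol results are therefore also given without them, from a fit in which estradiol array 3 alone stands for its group and is assumed to vary like the others. The tissue was checked by its secretory genes: Pbsn (probasin) was at 10.5 to 11.6 on the control arrays, and Pbsn fell in all 3 treated groups, though in estradiol rats it did not pass without estradiol arrays 1 and 2 (-1.49 ± 0.76, adjusted p = 0.353). The lowest level on any array was 9.66 for Hoxb13, 9.70 for Andpro, 12.46 for Scgb2a1, 10.01 for Krt8 and 10.41 for Krt18, while Scgb1c1 lay at 3.99 to 5.40 throughout. Of the 9 epithelial genes measured, 3 rose and 2 fell in castrated rats (among them Krt8 by 1.28 ± 0.16 and Krt18 by 0.97 ± 0.18, and Andpro, which fell by 1.88 ± 0.49), 2 rose and 3 fell in estradiol rats (1 rose and none fell without estradiol arrays 1 and 2), and 3 rose and 1 fell in castrated plus estradiol rats.

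After castration, 2 of the 39 genes rose and none fell: the matricellular protein Postn and the FACIT collagen Col14a1. Among all genes, 3.17% rose and 2.36% fell, 5.54% in all, so the share of matrix genes called was close to that of genes in general. Without adjustment 4 matrix genes passed at p under 0.05, all of them higher. Of all genes 16.1% passed in this way, 9.88% as higher and 6.22% as lower. In this bulk tissue, fewer cells of a type and less RNA per cell cannot be told apart.

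Postn, periostin, binds collagen and fibronectin and promotes the assembly of collagen fibres. Its level was 6.71, 6.19 and 7.14 on the castrated arrays, 5.73, 5.84 and 5.88 on the estradiol arrays, 6.62, 6.47 and 6.85 on the castrated plus estradiol arrays, and 5.84, 5.41 and 5.31 on the control arrays. All 6 arrays of castrated animals, with or without estradiol, were above all 6 arrays of animals with testes. Over all genes, 1.2% showed that order. Postn rose by 1.16 ± 0.22 (log2 difference ± SE) in castrated rats against control, a 2.24-fold difference (95% interval of the log2 difference 0.68 to 1.64, adjusted p = 0.00777 by limma). It passed under all 21 alternative settings, with differences between 0.93 and 1.49.

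Col14a1, a FACIT collagen that lies along the surface of collagen fibrils, was high in castrated rats without estradiol. Its level was 7.54, 7.19 and 7.84 on the castrated arrays, 6.39, 6.20 and 6.57 on the estradiol arrays, 7.01, 6.63 and 6.94 on the castrated plus estradiol arrays, and 7.06, 6.44 and 6.59 on the control arrays. Every castrated array was above the other 9, an order seen in 1.41% of all genes. Col14a1 rose by 0.83 ± 0.21 in castrated rats against control (1.77-fold, interval 0.38 to 1.27, adjusted p = 0.0335). The call ended when castrated array 1 or 3, castrated plus estradiol array 1 or 3, or control array 2 or 3 was left out, with differences of 0.67 to 0.83 and adjusted p from 0.0518 to 0.172.

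**Figure D1:**
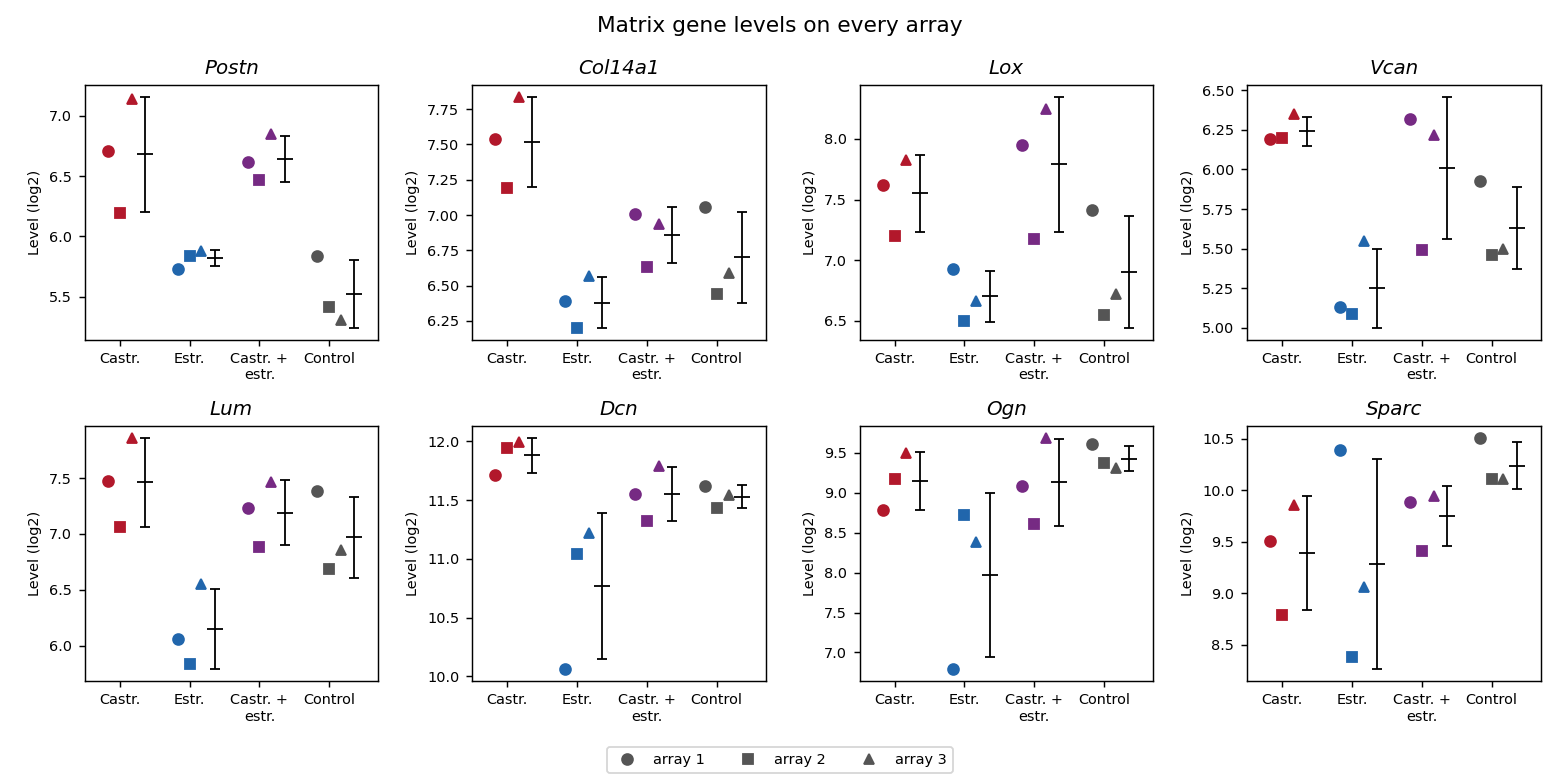
Level (deposited log2 value, y axis) of 8 matrix genes on each array by group (x axis: castrated, estradiol, castrated plus estradiol, control); markers are arrays 1, 2 and 3 and black bars are the mean ± SD (n = 3). Postn is high on all 6 arrays of castrated animals, Col14a1 on the 3 castrated arrays, and Lum and Dcn are low on the 3 estradiol arrays.

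Besides Postn and Col14a1, the matrix genes with an unadjusted p under 0.05 in castrated rats were Vcan and Lox, and neither passed after adjustment. Vcan, versican, a large proteoglycan that swells the matrix with hyaluronan, was at 6.19, 6.20 and 6.35 on the castrated arrays, 5.13, 5.09 and 5.55 on the estradiol arrays, 6.32, 5.49 and 6.22 on the castrated plus estradiol arrays, and 5.93, 5.46 and 5.50 on the control arrays. The castrated arrays were above all 3 controls, with a difference of 0.62 ± 0.22 (adjusted p = 0.152). Lox, lysyl oxidase, which crosslinks collagen and elastin, was at 7.62, 7.20 and 7.83 on the castrated arrays, 6.93, 6.50 and 6.66 on the estradiol arrays, 7.95, 7.17 and 8.25 on the castrated plus estradiol arrays, and 7.41, 6.55 and 6.72 on the control arrays. Control array 1 reached into the range of both castrated groups, and the difference in castrated rats was 0.66 ± 0.28 (adjusted p = 0.263).

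Sparc, osteonectin, a collagen-binding protein of remodelling tissue, stood on the other side. Its level was 9.51, 8.79 and 9.86 on the castrated arrays, 10.39, 8.38 and 9.06 on the estradiol arrays, 9.89, 9.41 and 9.94 on the castrated plus estradiol arrays, and 10.51, 10.11 and 10.11 on the control arrays. Every array of a castrated animal was below every control array, with differences of -0.86 ± 0.40 in castrated rats (adjusted p = 0.323) and -0.50 ± 0.40 in castrated plus estradiol rats (adjusted p = 0.750). When estradiol arrays 1 and 2 were left out of the fit, Sparc passed as lower in castrated rats (adjusted p = 0.0346), with the same difference and a smaller SE of 0.24.

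The fibrillar collagens moved little after castration: 9 of 10 had a difference below 0, none passed, and the differences ran between -0.47 and 0.04. Col1a1, the main chain of type I collagen, was at 7.77, 7.15 and 7.99 on the castrated arrays, 8.77, 7.36 and 7.27 on the estradiol arrays, 8.25, 7.45 and 7.86 on the castrated plus estradiol arrays, and 8.47, 7.85 and 8.01 on the control arrays. Its partner chain Col1a2 was at 7.77, 6.95 and 7.89 on the castrated arrays, 8.18, 7.17 and 7.41 on the estradiol arrays, 8.10, 7.47 and 7.87 on the castrated plus estradiol arrays, and 8.18, 7.85 and 8.0 on the control arrays. Both chains averaged 0.47 lower in castrated rats, with intervals of -1.25 to 0.31 for Col1a1 and -1.09 to 0.14 for Col1a2, and in both the groups overlapped. Col3a1, the chain of type III collagen, was at 6.68, 6.20 and 6.81 on the castrated arrays, 7.49, 6.12 and 6.29 on the estradiol arrays, 6.81, 6.28 and 6.54 on the castrated plus estradiol arrays, and 6.87, 6.57 and 6.59 on the control arrays. Estradiol array 1 held the highest Col3a1 and Col1a1 levels of the 12 arrays, while estradiol array 2 held the lowest Col3a1 level.

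Basement membrane chains were nearly level. Col4a1, the ubiquitous chain of type IV collagen, was at 6.27, 5.99 and 6.10 on the castrated arrays, 6.52, 6.14 and 6.13 on the estradiol arrays, 6.26, 6.08 and 6.25 on the castrated plus estradiol arrays, and 6.27, 6.14 and 6.16 on the control arrays. Differences against control were at most 0.07 in size, with intervals within -0.40 and 0.40. Col4a3 and Col4a4, chains of specialised basement membranes whose genes lie next to each other, were below all controls on the castrated arrays, by 0.29 ± 0.17 and 0.21 ± 0.13 (adjusted p = 0.481 and 0.543). In all, 4 matrix genes were above all controls on the castrated arrays (Postn, Col14a1, Vcan and Dcn), where 18.8% of all genes were, and 3 were below (Sparc, Col4a3 and Col4a4), where 13.7% were.

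Given estradiol with the testes in place, 1 of the 39 genes fell and none rose: Ogn, osteoglycin, a small leucine-rich proteoglycan that binds collagen fibrils. Among all genes 5.48% fell and 2.51% rose, 7.99% in all. Without adjustment 9 matrix genes passed at p under 0.05, 5 of them higher (all collagens) and 4 lower, and 30.2% of all genes did. The small leucine-rich proteoglycans had a median difference of -0.77, the 25 collagens one of 0.07, and all genes one of 0.07.

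Ogn was at 8.79, 9.17 and 9.50 on the castrated arrays, 6.79, 8.72 and 8.39 on the estradiol arrays, 9.08, 8.61 and 9.69 on the castrated plus estradiol arrays, and 9.61, 9.37 and 9.31 on the control arrays. The estradiol arrays were all below the controls, and array 1 lay far under the other 2. Ogn fell by 1.46 ± 0.41 in estradiol rats, or 2.75-fold (interval -2.34 to -0.58, adjusted p = 0.0456). The call held under 7 of 21 alternative settings, with adjusted p over all of them between 0.0169 and 0.167. Leaving out any castrated, castrated plus estradiol or control array, or estradiol array 1, ended it (adjusted p = 0.0527 to 0.144), and the difference was -0.87 without estradiol array 1. Without estradiol arrays 1 and 2 it was -1.04 ± 0.35 (adjusted p = 0.128), from estradiol array 3 alone.

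Lum, lumican, which limits the thickness of collagen fibrils, was at 7.47, 7.06 and 7.86 on the castrated arrays, 6.06, 5.84 and 6.55 on the estradiol arrays, 7.23, 6.88 and 7.46 on the castrated plus estradiol arrays, and 7.38, 6.69 and 6.86 on the control arrays. Dcn, decorin, whose gene lies next to Lum and whose protein binds collagen fibrils and TGF-beta, was at 11.71, 11.94 and 11.99 on the castrated arrays, 10.06, 11.04 and 11.22 on the estradiol arrays, 11.55, 11.32 and 11.79 on the castrated plus estradiol arrays, and 11.62, 11.43 and 11.54 on the control arrays. For both genes the 3 estradiol arrays were below the other 9, an order seen in 1.65% of all genes. Neither passed against control in the main fit, with differences of -0.83 ± 0.26 for Lum (adjusted p = 0.0639) and -0.76 ± 0.25 for Dcn (adjusted p = 0.0737). With array medians centred, Lum passed (-0.95 ± 0.26, adjusted p = 0.0437 by limma) and Dcn did not (-0.88 ± 0.28, adjusted p = 0.0643). With quantile normalization neither passed (adjusted p = 0.0528 for Lum and 0.192 for Dcn, by limma). Without estradiol arrays 1 and 2 the differences were -0.43 ± 0.32 for Lum and -0.32 ± 0.19 for Dcn.

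Bgn, biglycan, a close relative of decorin, was at 9.71, 8.79 and 10.05 on the castrated arrays, 8.08, 8.92 and 9.31 on the estradiol arrays, 9.90, 9.32 and 10.07 on the castrated plus estradiol arrays, and 9.98, 9.39 and 9.24 on the control arrays. Estradiol array 3 lay among the controls and the other estradiol arrays under them, for a difference of -0.77 ± 0.36 (adjusted p = 0.168), or -0.23 ± 0.44 without estradiol arrays 1 and 2. Fmod, fibromodulin, the fifth proteoglycan, differed by 0.05 ± 0.23 and spanned 3.99 to 5.04 within the controls alone.

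Among the adhesive and elastic genes, Fn1 (fibronectin, the adhesive scaffold of early matrix) was at 8.22, 7.62 and 8.60 on the castrated arrays, 7.62, 6.79 and 8.15 on the estradiol arrays, 8.47, 7.55 and 8.18 on the castrated plus estradiol arrays, and 8.30, 7.73 and 7.71 on the control arrays. Fbn1 (fibrillin-1, the core of elastic microfibrils) was at 7.94, 6.95 and 7.93 on the castrated arrays, 7.60, 6.27 and 6.48 on the estradiol arrays, 7.85, 6.73 and 7.27 on the castrated plus estradiol arrays, and 7.75, 6.73 and 6.71 on the control arrays. Eln (elastin) was at 6.26, 5.87 and 6.41 on the castrated arrays, 7.02, 6.49 and 6.34 on the estradiol arrays, 6.65, 6.50 and 6.69 on the castrated plus estradiol arrays, and 6.71, 6.45 and 6.40 on the control arrays. In these 3 genes array 2 was the lowest of the castrated and of the castrated plus estradiol arrays, array 1 was the highest of the controls, and no treated group was clear of the controls. Loxl1 and Loxl2, relatives of lysyl oxidase, differed from control by at most 0.40 in size in any treated group.

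In estradiol rats 5 collagens were higher with an unadjusted p under 0.05, and none passed after adjustment: Col16a1 by 0.52 ± 0.19 (adjusted p = 0.0993), Col9a2 by 0.47 ± 0.22 (adjusted p = 0.163), Col11a2 by 0.46 ± 0.18 (adjusted p = 0.116), Col7a1, the anchoring fibril collagen, by 0.40 ± 0.17 (adjusted p = 0.143) and Col5a3 by 0.35 ± 0.15 (adjusted p = 0.139). The size of these differences depended on the array. On estradiol array 1 they stood 0.38 to 0.96 above the control mean, on array 2 0.48 to 1.01 above it, and on array 3 0.00 to 0.06 above it. When estradiol array 3 was left out, 10 matrix genes passed: these 5 with Col2a1 and Col13a1 as higher, and Ogn, Lum and Dcn as lower, while 5329 of the 14506 genes passed. When arrays 1 and 2 were left out, none did. The 3 estradiol arrays were above all controls in 2 matrix genes (Col5a3 and Col8a1), where 12.3% of all genes were, and below them in 3 (Ogn, Lum and Dcn), where 15.1% were.

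Each estradiol array was also set against the 3 controls on its own. On array 1, 22 of 25 collagens were above every control and 1 was below, and of the 14 other genes 2 were above and 7 below, while 49.8% of all genes were above and 37.4% below. On array 2, 10 collagens were above and 10 below, and of the others none was above and 9 below, with 41.6% and 40.3% of all genes above and below. On array 3, 3 collagens were above and 9 below, and of the others 1 was above and 7 below, with 34.8% and 30.3% of all genes. Ogn, Lum and Dcn were below every control on all 3 arrays, while the direction in most collagens differed between the arrays.

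**Figure D2:**
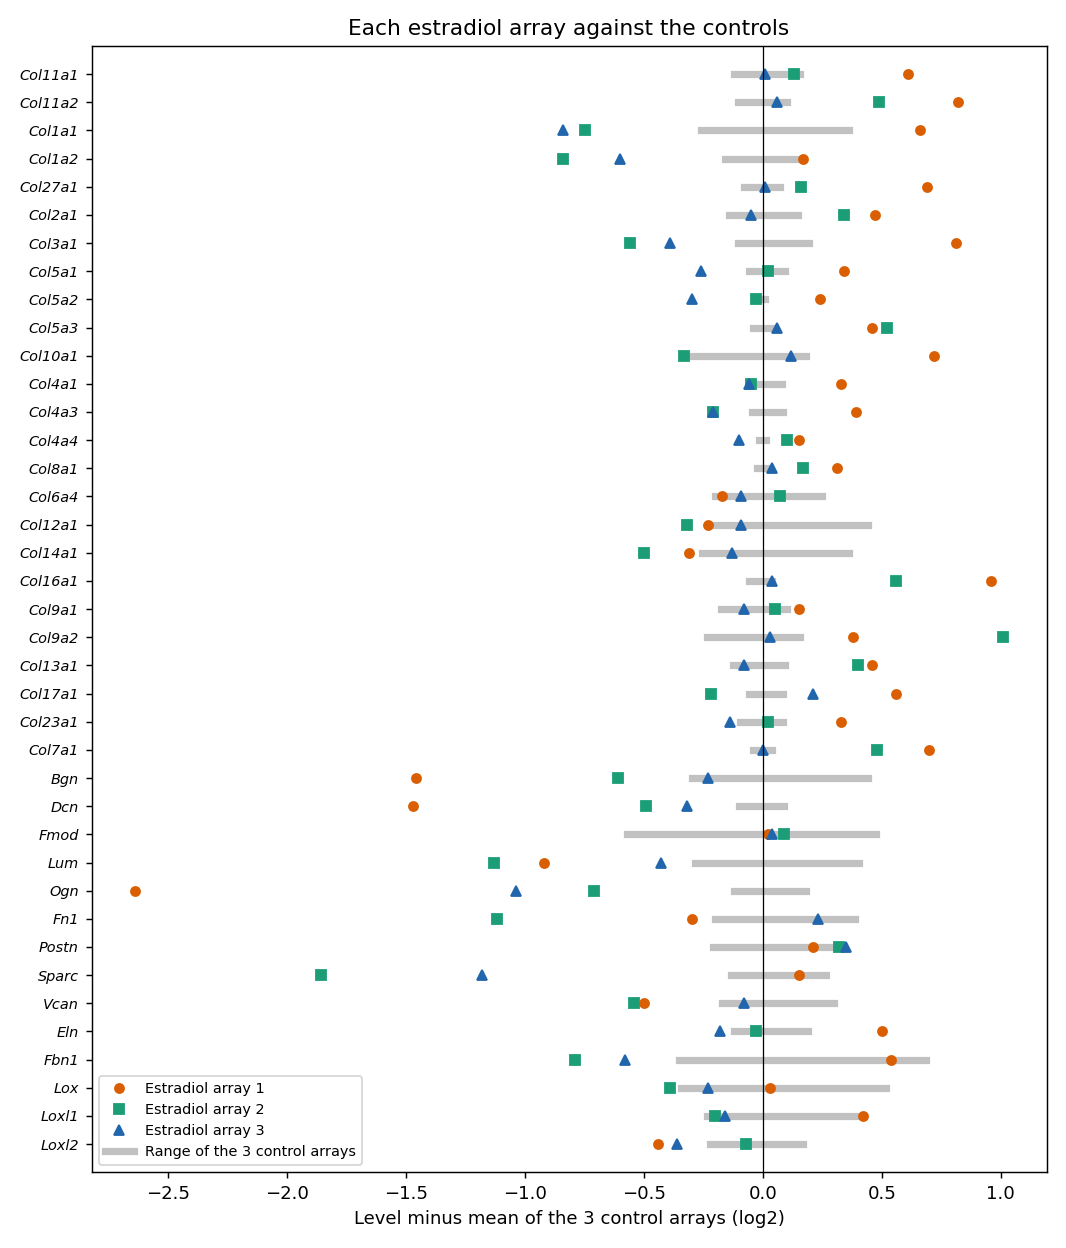
Level of each matrix gene on estradiol arrays 1, 2 and 3 minus the mean of the control arrays (log2 difference), with a grey bar for the range of the 3 controls. Most collagens lie above the bar on array 1 (22 of 25) and few on array 3 (3 of 25), while Ogn, Lum and Dcn lie below it on all 3.

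In castrated plus estradiol rats, 1 of the 39 genes rose and none fell, and it was again Postn. Among all genes 2.12% rose and 2.21% fell, 4.32% in all. The comparisons against control share the 3 control arrays, so their values are set side by side and were not tested for likeness. Postn rose by 1.12 ± 0.22 (2.18-fold, interval 0.64 to 1.60, adjusted p = 0.011). That call ended without castrated plus estradiol array 3, control array 2 or control array 3 (adjusted p = 0.0720, 0.0652 and 0.0653), with differences of 1.02 to 1.07. Without adjustment 2 matrix genes passed, Postn and Lox, and 14.7% of all genes did.

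Lox stood 0.89 ± 0.28 above control in the combined group (adjusted p = 0.109), against 0.66 in castrated rats and -0.20 in estradiol rats. Vcan stood 0.38 ± 0.22 above (adjusted p = 0.519) and Col14a1 0.16 ± 0.21 (adjusted p = 0.903). The proteoglycans were near the controls, with a median difference of 0.09, and Ogn differed by -0.30 ± 0.41 (interval -1.18 to 0.57). In 3 genes the combined group was above all controls (Postn, Col16a1 and Col5a2), where 21.1% of all genes were, and in 3 below (Sparc, Col4a3 and Col8a1), where 15.8% were.

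**Figure D3:**
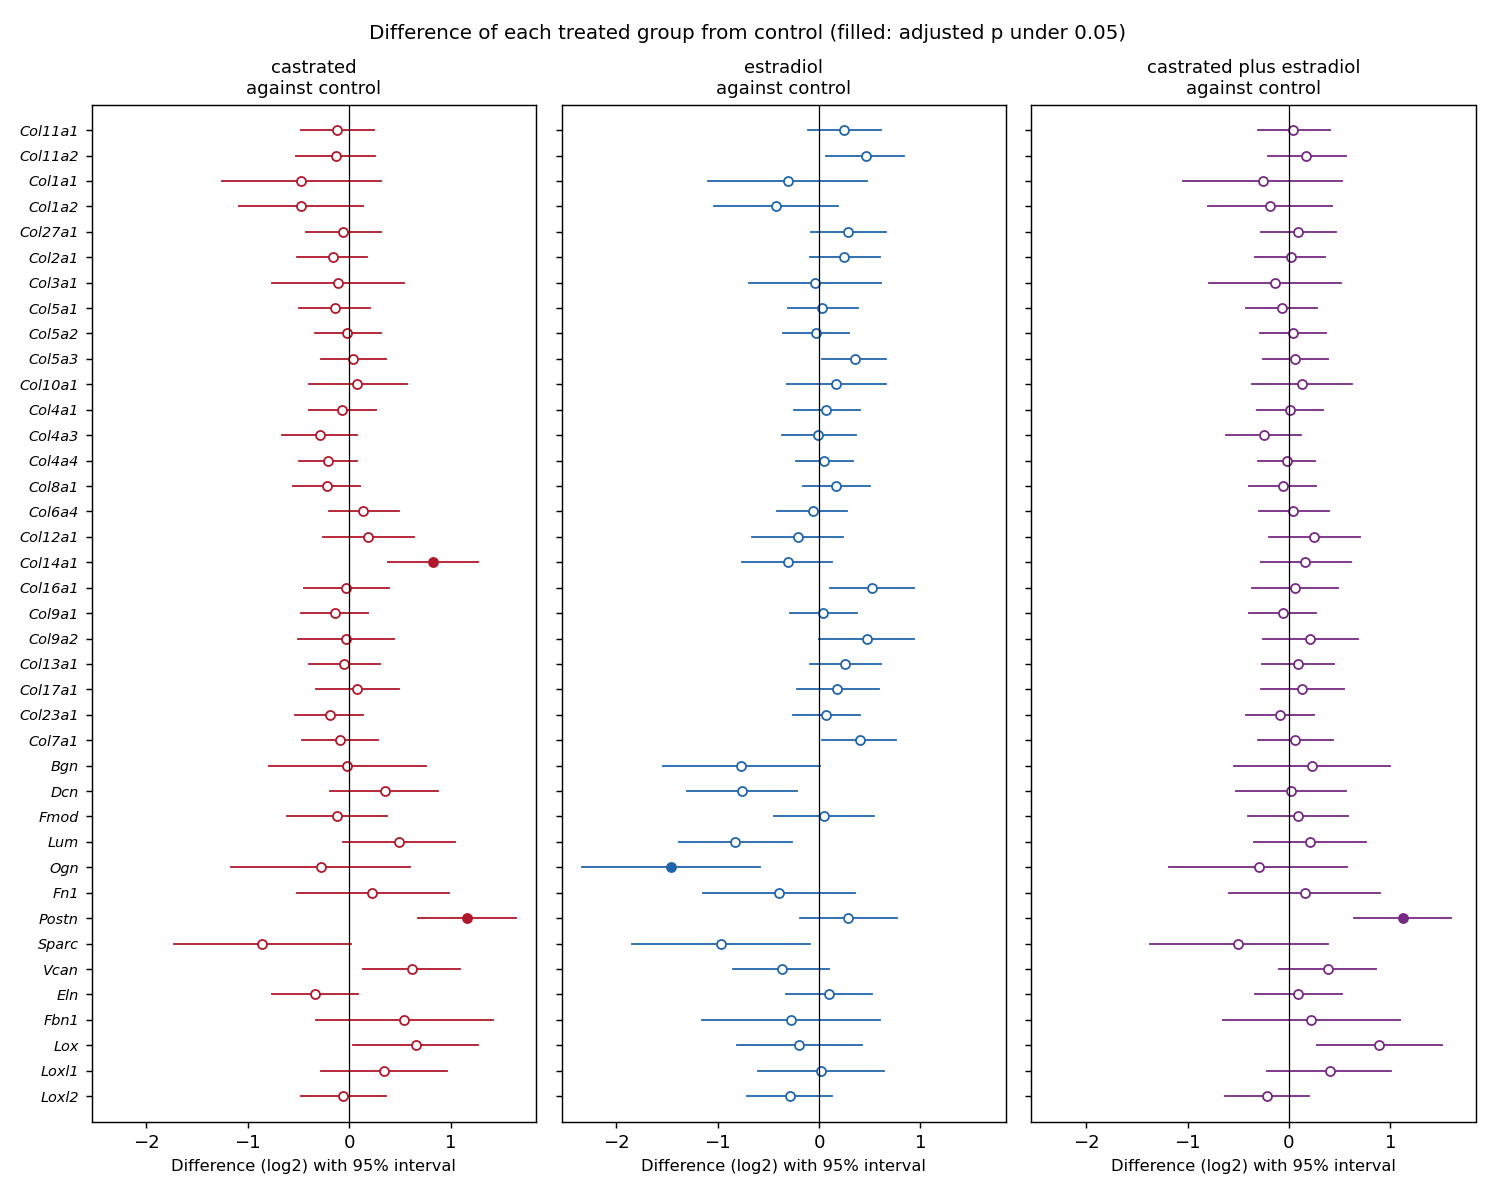
Log2 difference from control of each matrix gene in castrated, estradiol and castrated plus estradiol rats, with 95% intervals from limma; filled points passed after adjustment over 14506 genes. Postn and Col14a1 are filled in castrated rats, Ogn in estradiol rats and Postn in castrated plus estradiol rats.

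Among the treated groups themselves no matrix gene passed in limma, and of all 14506 genes 0.0% passed in each of the 3 comparisons. Col14a1 in castrated plus estradiol rats averaged 6.86 ± 0.20 and in castrated rats 7.52 ± 0.32 (SD, n = 3 each). The difference was -0.66 ± 0.21, with every combined array below every castrated one (adjusted p = 1.0). Eln was 0.43 ± 0.20 higher in the combined group (adjusted p = 1.0). These were the 2 matrix genes with an unadjusted p under 0.05. Of all genes 1.05% had one, 0.455% as higher and 0.6% as lower. The combined group was above castration in 5 matrix genes (5.66% of all genes) and below it in 1 (6.64%).

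Most proteoglycans were at higher levels in castrated plus estradiol rats than in estradiol rats, without passing. Lum differed by 1.04 ± 0.26, Bgn by 1.0 ± 0.36, Dcn by 0.78 ± 0.25 and Ogn by 1.16 ± 0.41, and likewise Lox by 1.09 ± 0.28, Postn by 0.83 ± 0.22 and Vcan by 0.76 ± 0.22 (adjusted p = 0.241 for each). Without estradiol arrays 1 and 2 the differences were 0.64 ± 0.32 for Lum, 0.46 ± 0.44 for Bgn, 0.33 ± 0.19 for Dcn, 0.73 ± 0.35 for Ogn, 1.13 ± 0.40 for Lox, 0.77 ± 0.31 for Postn and 0.47 ± 0.29 for Vcan (adjusted p = 0.999 for each). In 6 matrix genes the combined arrays were all above the estradiol arrays (Lum, Bgn, Dcn, Lox, Postn and Col14a1), where 9.04% of all genes were, and in 1 below (Col8a1), where 6.55% were. The unadjusted p was under 0.05 in 10 matrix genes, 9 higher and Col16a1 lower, and in 18.9% of all genes, 9.82% as higher and 9.09% as lower. Without estradiol array 3, 11 of the 39 matrix genes passed, as did 4153 of the 14506 genes.

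Between estradiol and castrated rats the differences of smallest p were in Col14a1, Lum, Vcan and Dcn, without passing. Col14a1 averaged 6.38 ± 0.18 in estradiol rats and 7.52 ± 0.32 in castrated rats (SD, n = 3 each), a difference of -1.14 ± 0.21 (adjusted p = 0.128, by limma). Lum differed by -1.31 ± 0.26 (adjusted p = 0.139), Dcn by -1.11 ± 0.25, Vcan by -0.99 ± 0.22 and Postn by -0.87 ± 0.22 (adjusted p = 0.143 each), and Ogn by -1.18 ± 0.41 (adjusted p = 0.144). Estradiol arrays were all below castrated arrays in 8 matrix genes (9.21% of all genes) and all above them in 9, each of those a collagen (9.47%). The unadjusted p was under 0.05 in 15 matrix genes and in 27.3% of all genes. Without estradiol array 3, 18 of the 39 matrix genes passed, as did 5417 of the 14506 genes. Without arrays 1 and 2, none did, and the differences for Col14a1 and Lum were -0.96 ± 0.27 and -0.92 ± 0.32.

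The interaction, the effect of estradiol in castrated rats minus that in rats with testes, passed for none of the matrix genes in limma and for 1.1% of all genes. Ogn had a value of 1.43 ± 0.58 (adjusted p = 0.294) and Sparc one of 1.33 ± 0.57 (adjusted p = 0.324), and these were the 2 with an unadjusted p under 0.05, as against 14.2% of all genes. Without estradiol arrays 1 and 2 the values were 1.01 ± 0.43 for Ogn (adjusted p = 0.272) and 1.54 ± 0.42 for Sparc (adjusted p = 0.0891). Sparc passed without estradiol array 1 and Col16a1 without estradiol array 3. The fall of Ogn in estradiol rats and its value in the combined group were therefore not shown to differ between animals with and without testes.

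**Figure D4:**
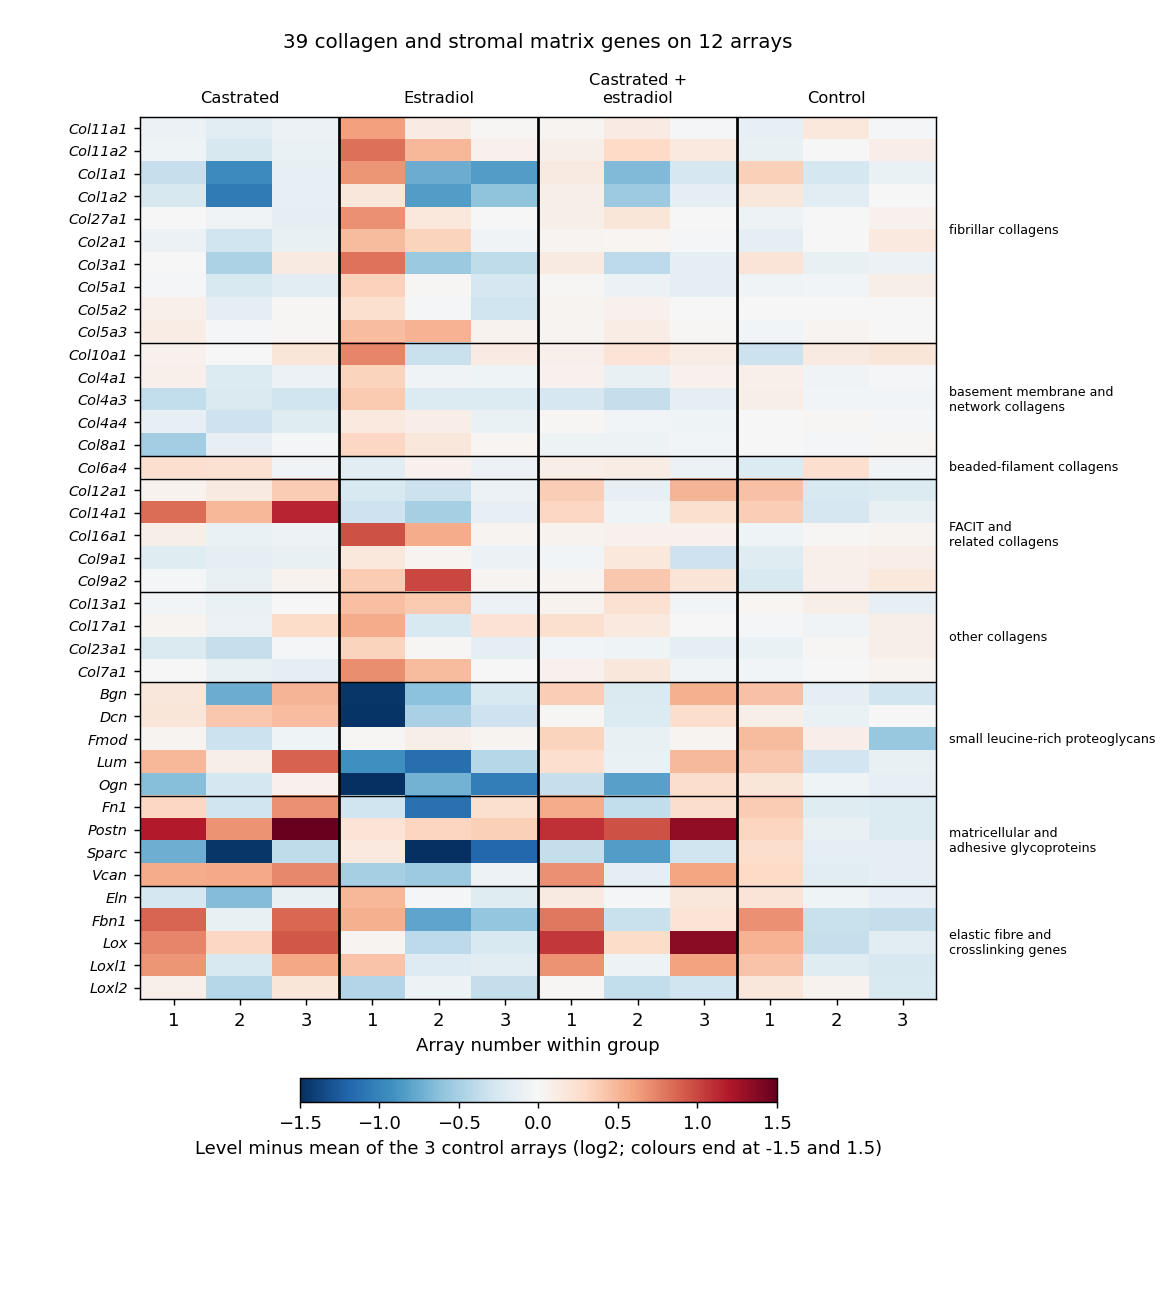
Level of the 39 matrix genes (rows, by role) on the 12 arrays (columns, by group) minus the mean of the control arrays; the colour scale is a log2 difference and ends at ±1.5. Postn is above the controls across all 6 arrays of castrated animals, Ogn, Lum and Dcn are below them on the estradiol arrays, and castrated array 2 is low in many genes beside its group.

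Arrays of one group differed across many of the matrix genes at once. Castrated array 2 was the lowest of its group in 29 of 39 genes (42.0% of all genes), and castrated array 3 was the highest in 23 (25.4%). Castrated plus estradiol array 2 was the lowest of its group in 21 (32.3%), and control array 1 the highest of its group in 21 (36.6%). The median SD of a matrix gene was 0.168 in castrated rats, 0.346 in estradiol rats, 0.185 in castrated plus estradiol rats and 0.163 in controls, where that of all genes was 0.160, 0.363, 0.115 and 0.115. On castrated array 2 the 11 smooth muscle markers averaged 8.04, against 8.67 and 8.56 on castrated arrays 1 and 3, and the 9 markers of fat, skeletal muscle, bone and cartilage averaged 6.06, against 5.56 and 5.42. Their part in the array differences was not tested.

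Of 27 genes that fold and modify collagen chains, 2 fell in castrated rats and none rose: Ppib, the prolyl isomerase of the collagen hydroxylation complex (-0.92 ± 0.23, adjusted p = 0.0295), and P4hb, a subunit of prolyl 4-hydroxylase and a disulphide isomerase (-0.75 ± 0.19, adjusted p = 0.0332). In estradiol rats 6 fell and none rose, the largest being P3h2, a prolyl 3-hydroxylase (-1.39 ± 0.38, adjusted p = 0.0433), Ppib (-1.14 ± 0.23, adjusted p = 0.00909), Fkbp14, a folding enzyme (-0.86 ± 0.18, adjusted p = 0.0109), and P4ha1, the catalytic subunit of prolyl 4-hydroxylase (-0.78 ± 0.14, adjusted p = 0.00645). In castrated plus estradiol rats none passed, and Ppib differed by -0.82 ± 0.23 (adjusted p = 0.0613). These counts rest on a spread shared by all groups, the estradiol arrays among them. Without estradiol arrays 1 and 2 the Ppib differences were the same in castrated (-0.92) and castrated plus estradiol rats (-0.82), with an SE of 0.13. The counts therefore do not show in which group the fall was largest. The median differences were -0.17, -0.44 and -0.12, beside 0.01, 0.07 and 0.04 for all genes. None of the 27 passed in estradiol rats without estradiol arrays 1 and 2, with a median of -0.30 and differences of -0.85 for P3h2, -0.58 for Ppib, -0.58 for Fkbp14 and -0.56 for P4ha1. Several of these enzymes also fold other secreted proteins.

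Of 21 genes of collagen breakdown, 3 rose and 1 fell in castrated rats, 2 rose and 2 fell in estradiol rats, and 2 rose and 1 fell in castrated plus estradiol rats. Mmp12, the macrophage elastase, averaged 9.18 ± 0.23 in castrated rats, 8.31 ± 1.33 in estradiol rats, 9.23 ± 0.17 in castrated plus estradiol rats and 5.95 ± 0.19 in controls (SD, n = 3 each), and it rose in all 3 treated groups. Timp4, an inhibitor of matrix metalloproteinases, averaged 7.88 ± 0.29, 8.19 ± 0.11 and 7.89 ± 0.34 in the same treated groups and 9.43 ± 0.06 in controls, and it fell in all 3, with an interaction of 1.24 ± 0.27 (adjusted p = 0.0456). Ctss, a lysosomal cathepsin, rose in castrated rats (1.53), and Ctsb in castrated (0.76) and castrated plus estradiol rats (0.84). Outside those groups neither was called in the main fit, and a rise there was not shown to be absent. In castrated rats the SE was 0.30 for Ctss and 0.18 for Ctsb, or 0.19 and 0.13 without estradiol arrays 1 and 2. In estradiol rats Mmp8, a neutrophil collagenase, rose (0.87) and Mmp2, a gelatinase of stromal cells, fell by 0.78. With estradiol array 3 alone, Mmp12 (3.7 ± 0.21) and Timp4 (-1.28 ± 0.25) still passed in estradiol rats, while Mmp8 (0.82, adjusted p = 0.0519), Mmp2 (-0.62, adjusted p = 0.125) and the Timp4 interaction (1.29, adjusted p = 0.0535) did not.

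Of 21 collagen and matrix receptors, 2 rose in castrated rats, 1 rose and 1 fell in estradiol rats, and 2 rose in castrated plus estradiol rats. Sdc1, an epithelial heparan sulphate proteoglycan, rose by 1.52 ± 0.29 in castrated rats, 1.10 ± 0.29 in estradiol rats and 1.43 ± 0.29 in castrated plus estradiol rats. Ddr1, a collagen receptor of epithelium, rose by 0.70 ± 0.18 in castrated and 0.94 ± 0.18 in castrated plus estradiol rats. Sdc2 fell by 0.71 ± 0.14 in estradiol rats. The groups not named did not pass in the main fit, which does not show that Ddr1 or Sdc2 was unchanged in them. The Sdc2 interaction was 0.85 ± 0.20 (adjusted p = 0.0642), or 0.77 without estradiol arrays 1 and 2. In the main fit none of 9 laminins and other basement membrane partners passed against control. Of 20 regulators around TGF-beta only Smad3, which carries the TGF-beta signal to the nucleus, passed. Smad3 rose by 0.61 ± 0.16 in castrated and 0.64 in estradiol rats. In castrated plus estradiol rats Lamc3 differed by 0.57 ± 0.15 (adjusted p = 0.0533) and Smad3 by 0.51 ± 0.16. Without estradiol arrays 1 and 2 these SE were 0.12 and 0.11. Of the 20 regulators, 18 were above 0 in castrated, 10 in estradiol and 19 in castrated plus estradiol rats. Of all 14506 genes, 7487, 8218 and 8219 were above 0 in the same groups. The median difference of the 20 was 0.32, -0.0 and 0.34. In estradiol rats that median was 0.23 without estradiol arrays 1 and 2, so the count of 10 depended on those arrays. With estradiol array 3 alone, Sdc2 still passed in estradiol rats (-0.63, adjusted p = 0.0218), and Sdc1 (0.99, adjusted p = 0.193) and Smad3 (0.55, adjusted p = 0.0674) did not.

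Markers of other cells moved beside these results. Of 11 macrophage markers, 7 rose in castrated rats, 2 in estradiol rats and 4 in castrated plus estradiol rats, and none fell. The median differences were 1.49, 0.62 and 1.29, and the counts rest on the spread shared with the estradiol arrays. Aif1 had an interaction of -1.48 ± 0.27 (adjusted p = 0.0172 by limma), or -1.53 without estradiol arrays 1 and 2. The mean level of the 11 markers per array was 7.63 to 8.30 in castrated rats, 6.81 to 7.81 in estradiol rats, 7.30 to 7.82 in castrated plus estradiol rats and 6.33 to 6.83 in controls. Their part in the Postn, Col14a1 and Mmp12 results was not tested. In estradiol rats 2 of 12 fibroblast markers outside the matrix genes fell (Cd34 by 1.68 and Dpt by 0.88), as did 2 of 9 endothelial markers (Flt1 by 0.83 and Pecam1 by 0.58) and 1 of 11 smooth muscle markers (Cnn1 by 1.40), and none of these markers rose. None of the markers of these 3 lists passed in estradiol rats without estradiol arrays 1 and 2 (Cd34 -1.10, Dpt -0.48, Flt1 -0.30, Pecam1 -0.56 and Cnn1 -0.95), and 7 of the 11 macrophage markers did, as higher.

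The fibroblast list had a mean level per array of 7.60 to 8.03 in castrated rats, 7.11 to 7.31 in estradiol rats, 7.52 to 7.91 in castrated plus estradiol rats and 7.52 to 7.90 in controls. The endothelial list ran 6.17 to 6.27, 5.64 to 5.89 and 6.10 to 6.33 in the same treated groups and 6.04 to 6.27 in controls, and the smooth muscle list 8.04 to 8.67, 7.84 to 8.26 and 8.37 to 8.90 and 8.48 to 8.71 in controls. All 3 estradiol arrays were thus below all controls in each of these lists, as they were for Ogn, Lum and Dcn, and the part of stromal cell numbers in the proteoglycan levels was not tested. In castrated rats none of the fibroblast, smooth muscle or endothelial markers passed in the main fit. Mylk, a smooth muscle marker, had the smallest adjusted p of these, with a difference of 0.60 ± 0.17 (adjusted p = 0.0618). The 11 smooth muscle markers had a median difference of -0.17. None of 5 basal cell markers passed in any of the 3 comparisons in the main fit. Krt15 differed by 1.24 ± 0.44 in castrated plus estradiol rats, with an SE of 0.33 without estradiol arrays 1 and 2. Of 9 markers of fat, skeletal muscle, bone and cartilage 2 rose and 1 fell in estradiol rats. The one that fell, Acta1, differed by -1.03 ± 0.25 in estradiol rats (adjusted p = 0.0278) and by -0.91 ± 0.25 in castrated rats (adjusted p = 0.0554); in the fit without estradiol arrays 1 and 2 the estradiol difference did not pass (adjusted p = 0.163) and the castrated one did (adjusted p = 0.0237). Array levels carry background signal, so no marker was called absent.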

How the data were processed

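Ventral prostate RNA (500 ng) was hybridized to 12 Affymetrix arrays, 3 per group, and per the submitters' processing notes the values came from Affymetrix Expression Console. The deposited values were taken as log2 levels from their range; no source used here states the normalization or log base. Of 29214 probe sets, 15310 had 1 gene symbol, 323 several and 13581 none; 14506 genes were tested, and 0 columns belonged to other samples. All 39 matrix genes matched RefSeq by identifier.

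The model gave each group 1 mean over the 12 arrays (limma 3.58.1, R 4.3.3, empirical Bayes moderation, 8 residual and 5.286 prior degrees of freedom), with 7 contrasts. 2-sided p-values received a Benjamini-Hochberg adjustment across the 14506 genes, and an adjusted p under 0.05 counted as passing. Every adjusted p comes from limma; "rose" and "fell" describe passing genes only. The median SE was 0.1947, and the number of arrays limits precision. Every contrast used 1 spread per gene, shared by the 4 groups. The median SD of all genes was 0.363 in estradiol rats and 0.115 to 0.160 in the other groups. Counts and shares passing therefore depend on the estradiol arrays, also in comparisons without estradiol rats. The fit was tested on simulated data in which all arrays of a gene had the same spread and only castrated arrays were shifted. That test does not cover the unequal spread of the estradiol arrays. Figures used matplotlib 3.10.9.

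The genes, lists, comparisons and alternatives were chosen with earlier results of these data known. Values on every array are given for genes that passed and for a fixed panel, of which Col6a1, Col15a1, Col18a1 and Tnc are not analysed here. Fmod, Col4a3, Col4a4, Col16a1 and the other collagens given with differences are members named by role. Same-numbered arrays were checked for pairing by the correlation of their deviations from group means. Only castrated with estradiol exceeded 0.1 in all 3 pairs (0.1437 to 0.2835), and the block left that comparison at 0 genes. The lists without estradiol arrays 1 and 2 were refitted after seeing the data. From each related list up to 4 passing genes of largest difference were named, or the 1 of smallest p.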

Additional observations from a re-analysis of the deposited data

How the results depend on the processing

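Counts of matrix genes passing were recomputed under 21 alternatives per comparison (20 for the interaction). The 40th-percentile filter on dim genes, the mean of probe sets and a variance trend left every count as it was, and no called value changed sign. For castrated against control (2 in the main analysis), array quality weights gave 9, and leaving out 1 array gave 1 to 2. For estradiol against control (1), centred array medians gave 2, quantile normalization 0, array weights 2, only the arrays compared 0, the replicate block 2 (Ogn, and Lum with adjusted p = 0.0231), and the fit without estradiol arrays 1 and 2 gave 0. Leaving out 1 array gave 0 to 10, with 10 only without estradiol array 3. For castrated plus estradiol against control (1), array weights gave 6, the replicate block 2 (Postn, and Lox with adjusted p = 0.0308) and leaving out 1 array 0 to 2. Castrated plus estradiol against castrated stayed at 0 in all 21. Array weights gave 1 for castrated plus estradiol against estradiol, 6 for estradiol against castrated and 1 for the interaction, each 0 in the main analysis, and leaving out 1 array gave 0 to 11, 0 to 18 and 0 to 1. The cause of these changes was not tested.

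The number of all genes passing moved too: leaving out 1 array gave 361 to 1783 for castrated, 390 to 5329 for estradiol and 265 to 1484 for castrated plus estradiol against control, and the other alternatives gave 704 to 3788, 197 to 2307 and 548 to 4134. Centring array medians moved the median difference of all genes in estradiol rats to -0.048, against 0.0728 as deposited. Array weights were 0.0879, 0.6946 and 0.1915 for estradiol arrays 1, 2 and 3.

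Same-numbered arrays correlated over 0.1 in 7 of 18 pairs (range -0.1561 to 0.2835), and an array correlated best with its own number in 21 of 36 cases. All 3 pairs exceeded 0.1 for castrated with estradiol, where the block left the count at 0. In the comparisons against control they did not, so the numbers were not taken to pair the samples there and the block is an alternative. The number of arrays, 3 per group, limits the precision.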

Other observations

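Small leucine-rich proteoglycans outside the 39 genes were looked at after the values of Ogn and Lum were seen. Aspn, asporin, a relative of decorin, was at 7.70, 7.44 and 8.52 on the castrated arrays, 4.40, 5.67 and 6.37 on the estradiol arrays, 7.72, 6.42 and 7.56 on the castrated plus estradiol arrays, and 6.86, 6.54 and 6.27 on the control arrays. It did not pass in limma, with differences of 1.33 ± 0.45 in castrated rats (adjusted p = 0.126), -1.07 ± 0.45 in estradiol rats (adjusted p = 0.136) and 0.68 ± 0.45 in castrated plus estradiol rats (adjusted p = 0.629). Omd, osteomodulin, differed by -1.14 ± 0.38 in estradiol rats (adjusted p = 0.0778) and by -0.06 and 0.06 in castrated and castrated plus estradiol rats. Kera and Epyc, also of this family, did not pass in any of the 3 groups.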
